A study of Mus musculus with 2 samples.

Results

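The genes described here are 42 genes of the endoplasmic reticulum (ER), the compartment in which secreted and membrane proteins are made and folded. They were taken by name from a fixed list that covers stress sensors, chaperones, ER-associated degradation, the protein-conducting channel and the enzyme that attaches sugar chains. The list was drawn up by role, with no threshold on measured values, but earlier results of these data were known when it was chosen. All 42 were found among the 52550 genes of the count tables, and 41 of them were measured, meaning that their mean over both libraries reached 1 count per 1000000 after scaling (CPM). The exception was Derl3, with 0 counts in each library, which allows at most 3 counts, or 0.209 per 1000000 total counts in 2D and 0.18 in 3D. The libraries came from untreated RAW264.7 cells, a macrophage-like mouse line established with the Abelson leukaemia virus, kept in 2D or in 3D culture. Each culture method had 1 library of polyadenylated RNA, and the sources used here do not describe the 3D culture system. A cell line is a single transformed population, so the values stand for RAW264.7 and not for macrophages in general.

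Proteins enter the ER through the Sec61 channel while ribosomes translate them, and a glycan is added to many of them by the oligosaccharyltransferase next to that channel. Chaperones of the heat shock families and disulfide isomerases fold the chain, and chains that fail to fold are drawn back to the cytosol and degraded. When unfolded proteins build up, the sensors IRE1, PERK and ATF6 start the unfolded protein response, which slows translation and raises the genes for chaperones and degradation factors. Macrophages secrete cytokines and lysosomal enzymes, and activated macrophages are known to use IRE1 and XBP1 in cytokine production.

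The 2D library held 14371084 counts and the 3D library 16652503. Since each culture method had 1 library, no difference could be checked against replicates and none carries a p-value. Ranges in parentheses after a fold or ratio are 95% intervals for counting error only, exact for single genes. Of the 12 macrophage markers, each had counts in both libraries, and they summed to 0.521% of the 2D counts and 0.899% of the 3D counts. Markers of other cell types were near 0, with summed counts of 1 and 0 for T cells, 14 and 6 for B and plasma cells, 22 and 17 for fibroblasts, 35 and 40 for endothelial cells, 5 and 15 for epithelial cells and 5 and 17 for neutrophils; Cd3e, Jchain and Lum were at 0 in both libraries. The 8 hepatocyte markers had 21 counts in 2D and 333 in 3D, of which Alb had 8 and 232, against 244837 and 212970 for the ER genes, and their part in the results was not tested. In bulk RNA, fewer cells with a transcript and less of it per cell cannot be told apart. Counts were scaled with trimmed means (TMM), and the scaling matters here. Under total counts every log2 ratio is lower by 0.60, and with the median of 22 reference genes set to equal it is lower by 0.81. These reference genes were not uniform, with log2 ratios from -1.56 to 2.02 under TMM scaling. Of the 22, 9 were 2-fold or higher and 1 was 2-fold or lower, against 18.7% and 20.8% of all measured genes.

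A larger share of the ER genes than of all genes stayed within 2-fold between the cultures under TMM scaling. Under TMM scaling, 4 of the 41 measured members (9.76%) had a 3D level at least 2 times the 2D level, against 18.7% of all 11673 measured genes, and 1 (2.44%) was lower by that factor, against 20.8% of all genes. Under total counts these numbers were 1, with 5.77% of all genes, and 8, with 35.9%; with the reference genes they were 0, with 3.56%, and 10, with 42.2%. The higher members were Ssr4, Dad1, Ddost and Rpn2, and the lower member was Ern1. The other 36 members, or 87.8%, stayed within 2-fold, against 60.5% of all measured genes. The middle 50% of the members spanned 0.99 log2 units, against 1.60 for all genes. ER genes are abundant, so the same count was made among the 2117 genes whose mean reached 100 CPM, a level chosen after the values were seen: 2-fold or higher ratios made up 35.6% of these and 2-fold or lower ones 6.47%. Of the 32 members at that level, 4 (12.5%) were higher and 0 lower. The middle 50% of these members spanned 0.90 log2 units, against 1.25 for all genes at that level. With protein-coding genes alone scaled, 3 members were 2-fold or higher (16.3% of such genes) and 2 were 2-fold or lower (20.3%), and with both libraries thinned 6 (18.8% of all genes) and 1 (20.9%) were. At a lower threshold, 14 were 1.5-fold or higher (31.7% of all genes) and 7 were 1.5-fold or lower (30.4%), while 0 reached 4-fold on either side (2.23% and 6.67%). The 2-fold line itself was close for several members: Syvn1 (1.96-fold), Ssr2 (1.96-fold) and Derl1 (1.95-fold) lay just below it and Rpn2 (2.07-fold) just above. After the adjustment for GC content, length and expression described below, 3 members were 2-fold or higher (10.4% of all genes) and 3 lower (9.49%). The middle 50% then spanned 0.68 log2 units for the members and 0.96 for all genes.

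**Figure D1:**
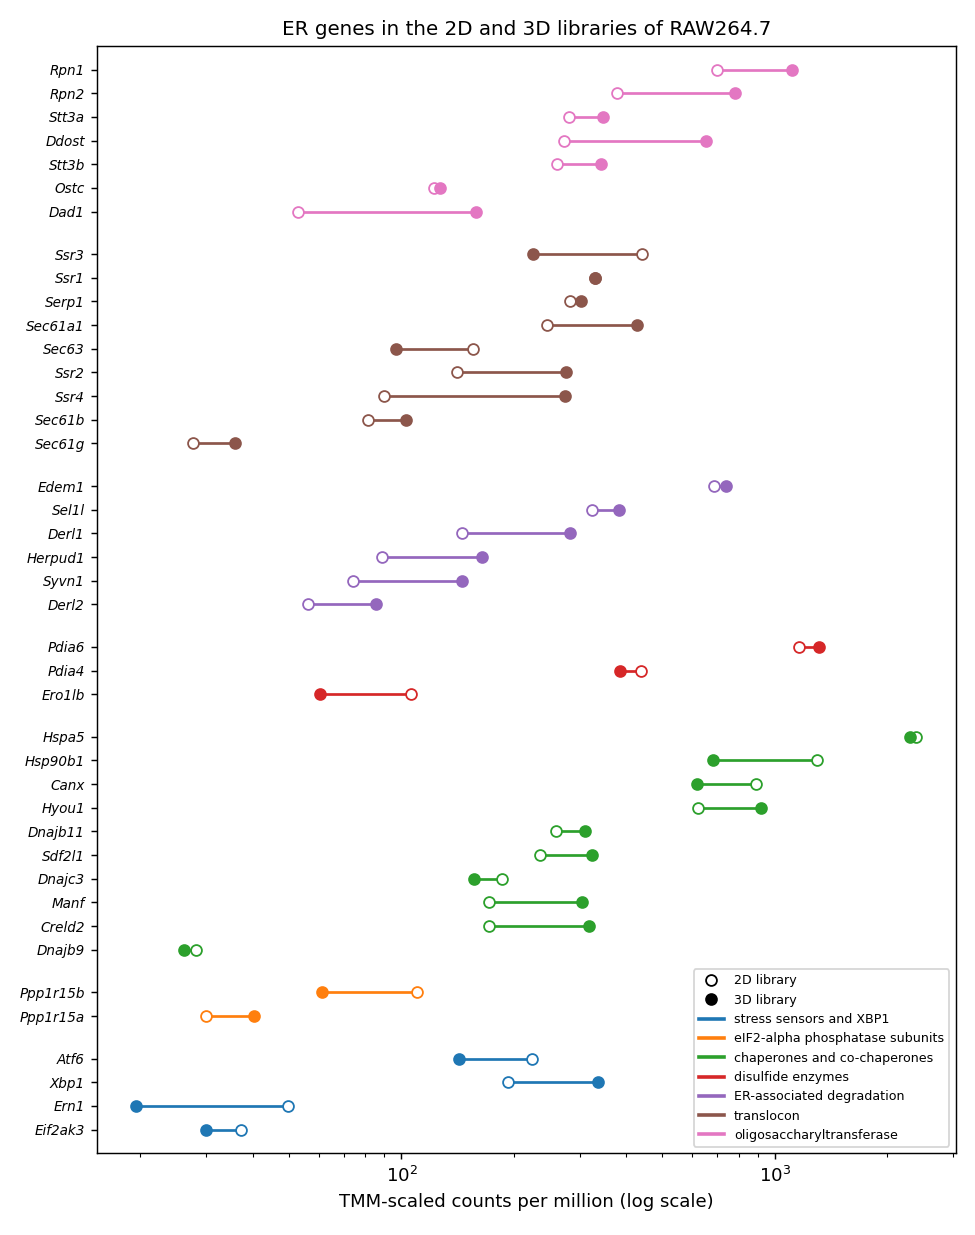
Level of each of the 41 measured ER genes in CPM after TMM scaling, on a log axis, with the 2D library as open and the 3D library as filled circles, joined by a line and coloured by role. Hspa5 is the most abundant in both libraries, every oligosaccharyltransferase and degradation gene sits at or to the right of its 2D value under this scaling, and Ern1 shows the longest step to the left.

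The direction of the group depended on the scaling. Together the 42 genes held 1.70% of the 2D counts (95% Wilson interval 1.70% to 1.71%) and 1.28% of the 3D counts (1.27% to 1.28%), so their share of the raw library was smaller in 3D. After TMM scaling the same counts summed to 13844 CPM in the 2D library, below the sum in the 3D library of 15738.5 CPM. A ratio above 1 was found for 28 members under TMM scaling, where 51.8% of all genes had one, for 14 under total counts (31.3% of all genes) and for 10 with the reference genes (24.6% of all genes). The median log2 ratio of the members was 0.31 under TMM scaling, 0.25 above the all-gene median of 0.05, and this distance was 0.27 under total counts. Of the 7 role groups, the oligosaccharyltransferase genes alone took a larger share of counts in the 3D library, 0.286% against 0.254%, while chaperones took a smaller one, 0.484% against 0.770%.

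The ratio also followed the base composition of the transcripts. Across 10538 measured protein-coding genes, the lowest of 10 equal GC classes had a median log2 ratio of -1.28 and the highest one of 0.96. The lowest class held 3 of the members and the highest 0. The members followed the same slope: over the 41 of them, GC content and log2 ratio had a Pearson r of 0.55 and a Spearman rho of 0.63, against 0.58 and 0.62 over the protein-coding genes. All points come from the same 2 libraries, so these coefficients describe the libraries. The log2 ratio of each measured member is therefore also given after adjustment for GC content, transcript length and mean expression, which gives its distance from genes of like composition and level. The culture method and a technical difference between the libraries cannot be told apart in this trend.

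**Figure D2:**
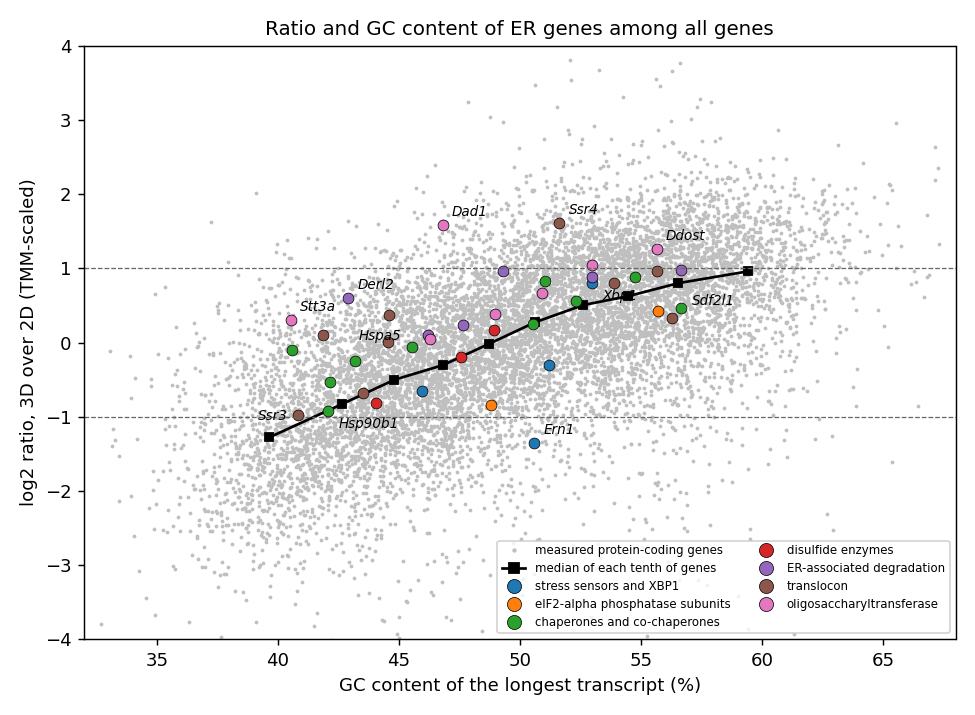
Log2 ratio of 3D over 2D under TMM scaling against the GC content of the longest transcript, for measured protein-coding genes (grey; 43 lie outside the axes), the median of each of 10 equal GC classes (black squares) and the ER genes by role (coloured). The ER genes rise along the grey cloud, with Dad1, Ssr4, Derl2 and Stt3a above the black line and Ern1 far below it; dashed lines mark 2-fold.

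After adjustment the members sat lower than before. The adjusted log2 ratio was below 0 for 29 of the 41 members (70.7%), where 49.1% of all genes were below 0, and the median of the members lay 0.30 below that of all genes. With GC content alone in the adjustment, 8 members were below 0 (46.3% of all genes) and the median lay 0.37 above that of all genes, so the sign of the group's median turns on whether length and expression are adjusted for too. Under that adjustment 7 members were 2-fold or higher (13% of all genes) and 1 was 2-fold or lower (12.5%). After adjustment for all 3 properties, Dad1, Derl2 and Stt3a were at least 2-fold higher (10.4% of all genes were). At least 2-fold lower were Sdf2l1, Ern1 and Sec61b (9.49% of all genes). With GC content alone Sdf2l1 and Sec61b were short of 2-fold, at -0.26 and -0.36 on the log2 scale. With the length and GC content of the principal transcript in place of the longest, the 3 higher genes were the same (7.83% of all genes), and the 3 lower ones were Hsp90b1, Ern1 and Sdf2l1 (8% of all genes). Ern1 and Dad1 were the only members past 2-fold both before and after adjustment. Ddost and Rpn2, 2-fold higher before it, had adjusted log2 ratios of -0.20 and -0.14.

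**Figure D3:**
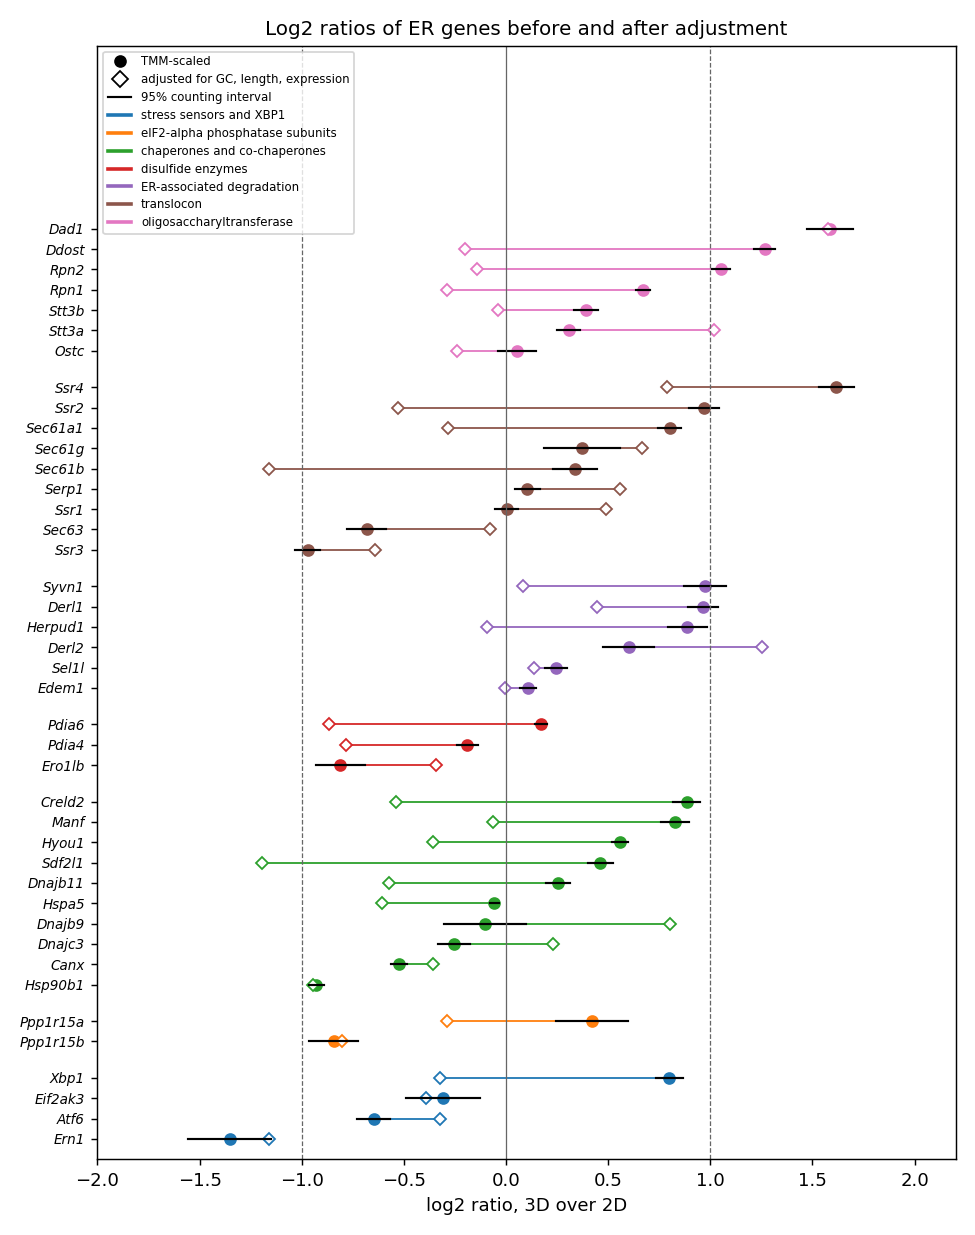
Log2 ratio of 3D over 2D for each measured ER gene under TMM scaling (filled circles, with black bars for the 95% counting interval) and after adjustment for GC content, transcript length and mean expression (open diamonds). Dad1, Ern1, Hsp90b1 and Ppp1r15b move little, whereas Ddost, Rpn2, Ssr2, Creld2 and Sdf2l1 cross from above to below 0; solid and dashed lines mark equal and 2-fold.

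The 3 stress sensors had lower levels in 3D, whereas Xbp1, the target of IRE1, had a higher level under TMM scaling and total counts and an equal one with the reference genes. Ern1 (ENSMUSG00000020715, chromosome 11, 106394650 to 106487852), which encodes IRE1, the kinase and endoribonuclease that splices Xbp1 mRNA, stood at 49.8 CPM in 2D (881 counts) and 19.5 CPM in 3D (264 counts). Ern1 was 2.55-fold lower in 3D (2.22 to 2.94), and its adjusted log2 ratio was -1.16. Atf6, whose product is cut in the Golgi to release a transcription factor, stood at 224 and 143 CPM, 1.57-fold lower (1.48 to 1.66). Eif2ak3, which encodes the kinase PERK, stood at 37.1 and 30.0 CPM, 1.24-fold lower (1.09 to 1.40). These 3 directions were the same under total counts, under the reference genes and after adjustment, where Atf6 had -0.32 and Eif2ak3 -0.39. Xbp1 stood at 193 CPM in 2D and 336 CPM in 3D, a ratio of 1.74 (1.67 to 1.82). This ratio was 1.15 under total counts and 0.996 with the reference genes, and its adjusted log2 ratio was -0.32. Within a library, where no scaling enters, there were 3.87 counts of Xbp1 for each count of Ern1 in 2D and 17.2 in 3D, a 4.45-fold shift (Wald 95% interval 3.85 to 5.14). That shift of 2.15 log2 units was 0.83 after adjustment, 0.86 with the principal transcripts and 1.88 with GC content alone. Counts per gene do not tell spliced from unspliced Xbp1, so the activity of IRE1 was not measured.

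The subunits that direct protein phosphatase 1 to eIF2-alpha, and so end the translation block set by PERK, differed from each other. Ppp1r15a, the stress-induced subunit also known as GADD34, stood at 30.0 CPM in 2D and 40.2 CPM in 3D, a ratio of 1.34 (1.19 to 1.51) that became 0.884 under total counts and 0.766 with the reference genes, and -0.29 on the adjusted log2 scale. Ppp1r15b, the constitutive subunit, stood at 110 and 61.4 CPM and was 1.79-fold lower in 3D (1.65 to 1.95), or -0.80 on the adjusted log2 scale. The count of Ppp1r15a per count of Ppp1r15b was 0.272 in 2D and 0.655 in 3D. That shift of 1.26 log2 units was 0.51 after adjustment.

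Hspa5 (ENSMUSG00000026864, chromosome 2, 34771970 to 34777547) encodes BiP, the HSP70 chaperone of the ER lumen and the usual landmark of ER stress. Its level was 2396 CPM in 2D (42379 counts) and 2302 CPM in 3D (31149 counts). The ratio of 0.961 (0.947 to 0.975) lay near equal under TMM scaling, and it was 0.634 under total counts and 0.55 with the reference genes. The adjusted log2 ratio of Hspa5 was -0.61, but 0.47 when GC content alone was adjusted for. Per 1000 bases of exon, Hspa5 was the most abundant member in both libraries, at 567 CPM in 2D and 544 CPM in 3D.

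The chaperone genes split by base composition: Hspa5 and the other 4 with the lowest GC content (40.6% to 45.6%) had ratios below 1, and the 5 with the highest (50.5% to 56.7%) had ratios above 1 under TMM scaling, of which 2 stayed above 1 under total counts and with the reference genes. Hsp90b1, which encodes GRP94, the HSP90 of the ER, stood at 1297 CPM in 2D and 682 CPM in 3D, 1.90-fold lower (1.86 to 1.95), and its adjusted log2 ratio was -0.95, or -1.12 with the principal transcript and 0.07 with GC content alone. Per 1000 bases of exon it ranked 2 among the members in 2D, at 322 CPM, and 8 in 3D, at 169 CPM. Canx, the membrane lectin calnexin that holds glycoproteins during folding, stood at 888 and 617 CPM, 1.44-fold lower (1.40 to 1.48), with -0.36 after adjustment and 0.46 after adjustment for GC content alone. Hyou1, the nucleotide exchange factor of BiP, stood at 625 and 919 CPM, a ratio of 1.47 that was 0.972 under total counts and 0.842 with the reference genes; its adjusted value was -0.36. Counts of Hyou1 per count of Hsp90b1 were 0.481 in 2D and 1.35 in 3D. This pair differed by 10.3 points of GC content, and its shift of 1.49 log2 units was 0.59 after adjustment and 0.14 with GC content alone.

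The co-chaperones of BiP showed small differences. Dnajb9 (ERdj4) had 28.2 and 26.2 CPM and an interval of its ratio that included 1 (0.811 to 1.07); its adjusted log2 ratio of 0.80 was the highest of the chaperone group. Dnajb11 (ERdj3) had 260 and 309 CPM, and Dnajc3 (p58IPK) had 186 and 156 CPM. Their ratios were 1.19 and 0.839, and under total counts both lay below 1. After adjustment Dnajb11 had -0.57 and Dnajc3 0.23. Sdf2l1, a partner of ERdj3, stood at 236 CPM in 2D and 324 CPM in 3D, a ratio of 1.38 that was 0.909 under total counts. Sdf2l1 had the lowest adjusted log2 ratio of all members, at -1.20, on a transcript of 1108 bases with 56.7% GC. With GC content alone it was at -0.26. Manf and Creld2, small proteins of the ER lumen that are induced by stress and can be secreted, stood at 172 and 305 CPM and at 172 and 317 CPM. Their ratios of 1.77 (1.69 to 1.86) and 1.85 (1.76 to 1.93) stayed above 1 under total counts and with the reference genes, at 1.01 for Manf and 1.06 for Creld2 in the latter. After adjustment they were at -0.06 and -0.54. Manf shares exon bases with Dcaf1 on the opposite strand and Rbm15b on its own, and the counting of such reads is not given.

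The enzymes of disulfide formation among the members were near equal or lower under TMM scaling. Pdia6 stood at 1163 CPM in 2D and 1310 CPM in 3D, a ratio of 1.13 that was 0.744 under total counts, and Pdia4 stood at 438 and 384 CPM, a ratio of 0.877. Both encode protein disulfide isomerases that work with BiP, and their adjusted log2 ratios were -0.87 and -0.78, or 0.24 and 0.07 with GC content alone. Ero1lb, which encodes the oxidase that recharges such isomerases, stood at 106 and 60.5 CPM and was 1.76-fold lower (1.62 to 1.91), with -0.34 after adjustment.

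Several of these genes carry the ER stress response element in their promoters, the sequence through which ATF6 and the CCAAT-binding factor NF-Y act. RefSeq promoter windows of GRCm38.p6, from 250 bases before to 50 bases after each transcript start, were in the reference table for 33 of the 42 members. The element, CCAAT and CCACG with 9 free bases between them, was searched on both strands and was present in the windows of 8 of these 33 members (24.2%) and of 37 of all 27025 genes (0.137%). The related element, ATTGG and CCACG with 1 free base between them, was present for 2 further members (6.06%) and for 0.0444% of all genes. The members were chosen for roles that include the response in which these elements act, so the higher shares are no independent result. In the matches below, capitals mark the letters of the element and small letters its free spacer, each in the direction of the element:
Hspa5: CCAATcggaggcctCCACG
Syvn1: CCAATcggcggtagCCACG
Pdia6: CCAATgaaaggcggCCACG
Dnajc3: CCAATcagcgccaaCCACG
Canx: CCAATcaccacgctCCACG
Creld2: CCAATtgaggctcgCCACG
Derl3: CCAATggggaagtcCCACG
Hsp90b1, distal: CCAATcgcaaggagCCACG
Hsp90b1, proximal: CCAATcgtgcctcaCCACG
Herpud1: ATTGGgCCACG
Dnajb11: ATTGGcCCACG

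The 9-base spacer of the full element had 66.7% G and C in 7 of these matches and 77.8% in those of Hspa5 and Syvn1. The Hspa5 match lies at chr2:34772025-34772043, 65 to 47 bases before the RefSeq start but within the gene span given above, which begins at 34771970. The Syvn1 match lies at chr19:6046532-6046550, 44 to 26 bases before its RefSeq start. The Dnajb11 match lies 7 to 17 bases after its RefSeq start. Hsp90b1 holds the element once in each direction, at chr10:86705638-86705656 and chr10:86705533-86705551. The letters CCAAT alone, which are part of the longer element, were present for 27 of the 33 members (81.8%) and 41.1% of all genes, and CCACG alone, also part of it, for 27 members (81.8%) and 35.5% of all genes. The other motifs searched were TGACGTGG (the unfolded protein response element), with 0 matches among the members and 0.714% of all genes, and TGATGNAAN (the amino acid response element), with a match in Herpud1 only and in 4.5% of all genes.

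Members with the full element did not share a direction. Of the 7 measured ones, the ratio was 1.96 for Syvn1, 1.85 for Creld2, 1.13 for Pdia6, 0.961 for Hspa5, 0.839 for Dnajc3, 0.695 for Canx and 0.526 for Hsp90b1. Their median log2 ratio was -0.06, against 0.34 for the 25 measured members whose window lacked it, and their adjusted medians were -0.54 and -0.09. Adjusted values ran from -0.95 to 0.23 with the element and from -1.20 to 1.57 without it, so the groups overlapped. Derl3 carries the element too and had no counts.

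For comparison, the windows of Hspa5 (chr2:34771840-34772139, plus strand), of Dad1, the member with the highest adjusted log2 ratio (chr14:54253880-54254179, minus strand), and of Sdf2l1, the member with the lowest (chr16:17132334-17132633, minus strand), are printed 5′ to 3′, with CCAAT and CCACG in either direction in capitals:
Hspa5: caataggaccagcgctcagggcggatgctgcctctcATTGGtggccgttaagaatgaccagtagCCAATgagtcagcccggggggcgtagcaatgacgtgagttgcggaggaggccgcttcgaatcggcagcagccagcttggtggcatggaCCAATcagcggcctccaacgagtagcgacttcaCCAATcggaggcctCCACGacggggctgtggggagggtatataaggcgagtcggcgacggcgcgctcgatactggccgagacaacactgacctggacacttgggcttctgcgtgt
Dad1: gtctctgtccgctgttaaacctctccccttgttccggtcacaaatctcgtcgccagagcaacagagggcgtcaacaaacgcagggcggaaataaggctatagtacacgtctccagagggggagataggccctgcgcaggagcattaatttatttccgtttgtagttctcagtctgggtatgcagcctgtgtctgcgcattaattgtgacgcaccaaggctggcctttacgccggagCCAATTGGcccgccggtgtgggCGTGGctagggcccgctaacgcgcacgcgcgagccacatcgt
Sdf2l1: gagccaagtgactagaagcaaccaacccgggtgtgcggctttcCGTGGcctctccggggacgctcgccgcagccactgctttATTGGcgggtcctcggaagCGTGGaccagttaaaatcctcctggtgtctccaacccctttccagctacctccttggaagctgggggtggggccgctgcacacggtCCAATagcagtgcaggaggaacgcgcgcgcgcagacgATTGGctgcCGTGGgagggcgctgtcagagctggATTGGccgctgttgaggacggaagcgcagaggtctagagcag

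Hspa5 holds CCAAT at 4 places and CCACG at 1, with 1 pair at the spacing of the element. Dad1 holds CCAAT in both directions at the same place and CCACG at 1 place, and Sdf2l1 holds CCAAT at 4 places and CCACG at 3, with 0 full elements in either window. A match of letters is a description of the sequence and does not show that a factor binds.

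Genes of ER-associated degradation, which removes misfolded proteins, had ratios above 1 under TMM scaling in each of the 6 measured cases (51.8% of all genes). Under total counts 4 of them stayed above 1 (31.3% of all genes), and with the reference genes 3 did (24.6%). After adjustment 2 of the 6 lay below 0, against 49.1% of all genes. Syvn1, the ubiquitin ligase HRD1 at the centre of the complex, stood at 74.1 CPM in 2D and 146 CPM in 3D, 1.96-fold higher (1.83 to 2.11). Herpud1, a stress-induced ubiquitin-like protein that assembles with it, stood at 88.9 and 165 CPM, 1.85-fold higher (1.73 to 1.97), and Derl1, a part of the channel, stood at 145 and 283 CPM, 1.95-fold higher (1.85 to 2.05). These 3 genes were higher under each scaling, with adjusted log2 ratios of 0.09, -0.09 and 0.44. Syvn1 shares 91 exon bases with Mrpl49 on the opposite strand, which had 472 and 474 counts. Sel1l, the adaptor that steadies HRD1, and Edem1, a mannosidase-like protein that hands over glycoproteins, were nearer to equal, at 324 and 384 CPM and at 686.5 and 739 CPM. The ratios of Sel1l and Edem1, 1.18 and 1.08, lay below 1 under total counts, and their adjusted log2 ratios were 0.14 and -0.0047.

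Derl2, a relative of Derl1, stood apart from the other degradation genes after adjustment. It had 56.3 CPM in 2D and 85.4 CPM in 3D, a ratio of 1.52 (1.39 to 1.65) that was 1.001 under total counts and 0.867 with the reference genes. Its transcript has 42.9% GC, a range in which most genes were lower in 3D, and the adjusted log2 ratio was 1.25, or 1.32 with the principal transcript. Derl2 shares 231 exon bases with Mis12 on the opposite strand, which had 679 and 224 counts. Counts of Derl1 per count of Derl2 were 2.58 in 2D and 3.32 in 3D. The GC contents of this pair differ by 6.41 points. Its shift of 0.36 log2 units was -0.81 after adjustment, -0.78 with the principal transcripts and -0.50 with GC content alone.

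Subunits of the translocon differed widely from each other. The channel itself is made of 3 subunits: Sec61a1, the pore, stood at 245 CPM in 2D and 426 CPM in 3D, Sec61b at 81.4 and 103 CPM, and Sec61g at 27.7 and 35.8 CPM. Their ratios were 1.74 (1.67 to 1.81), 1.26 (1.17 to 1.36) and 1.29 (1.14 to 1.47), and with the reference genes they were 0.997, 0.723 and 0.740. After adjustment Sec61a1 had -0.28, Sec61b -1.16 and Sec61g 0.66. Sec61b has a short transcript of 723 bases, and with its principal transcript the value was -0.67, which is no longer 2-fold. With GC content alone it was -0.36. Sec61g has near-identical copies, among them Gm10177 with 132 and 142 counts of its own, so its counts are uncertain. Sec63, which recruits BiP to the channel, was 1.6-fold lower (1.5 to 1.72), at 156 and 96.9 CPM, with -0.08 after adjustment.

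The translocon-associated protein complex, which helps some chains into the channel, showed the widest spread of ratios within a role group. Ssr4 (ENSMUSG00000002014, chromosome X, 73787028 to 73790830), the delta subunit, stood at 89.6 CPM in 2D (1584 counts) and 274 CPM in 3D (3714 counts). Ssr4 was 3.06-fold higher in 3D (2.89 to 3.25), the highest ratio of all members, with ratios of 2.02 under total counts, where no other member reached 2, and 1.75 with the reference genes. Ssr3, the gamma subunit, stood at 441 and 225 CPM and was 1.96-fold lower (1.88 to 2.04), with -0.64 after adjustment. Ssr2, the beta subunit, had 141 and 275 CPM and was 1.96-fold higher (1.86 to 2.06) and above 1 under each scaling, but at -0.53 after adjustment. Ssr1, the alpha subunit, had 329 and 330 CPM and an adjusted log2 ratio of 0.49. Counts of Ssr4 per count of Ssr3 were 0.203 in 2D and 1.22 in 3D, a 6.0-fold shift (5.59 to 6.45). The GC contents of these transcripts differ by 10.8 points, and the shift of 2.59 log2 units was 1.43 after adjustment and 0.77 with the principal transcripts. The adjusted log2 ratio of Ssr4 was 0.79 with the longest transcript, of 2568 bases, and 0.23 with the principal one, of 765 bases. Serp1, a small membrane protein bound to Sec61 under stress, stood at 282 and 303 CPM with an adjusted value of 0.56, and it shares 72 exon bases with Eif2a on the opposite strand.

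All 7 oligosaccharyltransferase genes had ratios above 1 under TMM scaling, as did 51.8% of all genes, and the interval for Ostc included 1 (0.973 to 1.105). Under total counts 4 stayed above 1 (31.3% of all genes), and with the reference genes 3 did (24.6%). After adjustment 5 of the 7 lay below 0, against 49.1% of all genes. Dad1 (ENSMUSG00000022174, chromosome 14, 54235479 to 54254104), a small scaffold subunit, stood at 53.0 CPM in 2D (937 counts) and 159 CPM in 3D (2149 counts). It was 3.00-fold higher in 3D (2.77 to 3.24), and its ratio was 1.98 under total counts and 1.72 with the reference genes. Its adjusted log2 ratio of 1.57 was the highest of all members and hardly differed from the unadjusted 1.58. Ddost, the subunit OST48, stood at 273 and 656 CPM, 2.40-fold higher (2.32 to 2.49), and Rpn2 (ribophorin II) at 378 and 782 CPM, 2.07-fold higher (2.01 to 2.14), both above 1 under each scaling. Rpn1 (ribophorin I), which presents substrates to the enzyme, stood at 699 and 1111 CPM, with ratios of 1.59 under TMM scaling, 1.05 under total counts and 0.910 with the reference genes, and an adjusted log2 ratio of -0.29. Ostc, a linker to the channel, was near equal, at 122 and 127 CPM (-0.24 after adjustment), and counts of Dad1 per count of Ostc were 0.433 in 2D and 1.25 in 3D. The GC contents of Dad1 and Ostc differ by only 0.527 points, and this shift of 1.53 log2 units was 1.82 after adjustment.

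The enzyme exists in 2 forms, with Stt3a acting beside the channel during translation and Stt3b after it. Stt3a stood at 280 CPM in 2D and 346 CPM in 3D, and Stt3b at 262 and 343 CPM. Their ratios of 1.24 (1.19 to 1.29) and 1.31 (1.26 to 1.36) were 0.816 and 0.865 under total counts. Counts of Stt3a per count of Stt3b were 1.07 in 2D and 1.01 in 3D, a ratio of 0.944 (0.891 to 0.999), the smallest shift of the 11 pairs compared. The adjusted log2 ratios differed more, 1.02 for Stt3a against -0.04 for Stt3b; the Stt3a transcript has 40.5% GC and that of Stt3b 49.0%. The pairs were chosen after the values of their genes were seen.

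Other genes of the same pathways were taken from 6 lists of 127 genes, of which 126 were found and 124 measured. Under TMM scaling, 27 of these had a 2-fold or higher ratio (21.8%) and 18 a 2-fold or lower one (14.5%). Among all genes 18.7% and 20.8% did. The counts were 6 and 27 under total counts (5.77% and 35.9% of all genes). With the reference genes they were 3 and 37 (3.56% and 42.2%). The median under TMM scaling lay 0.36 above that of all genes. After adjustment 9 were higher and 4 lower (7.26% and 3.23%, against 10.4% and 9.49% of all genes), with a median 0.10 above that of all genes, where the median of the members lay 0.30 below. The lists held 1.75% of counts in 2D and 2.04% in 3D, but without P4hb and Calr, left out after their values were seen, the share was 1.32% in 2D and 1.11% in 3D, and 4 of the 6 lists had a smaller share in 3D.

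**Figure D4:**
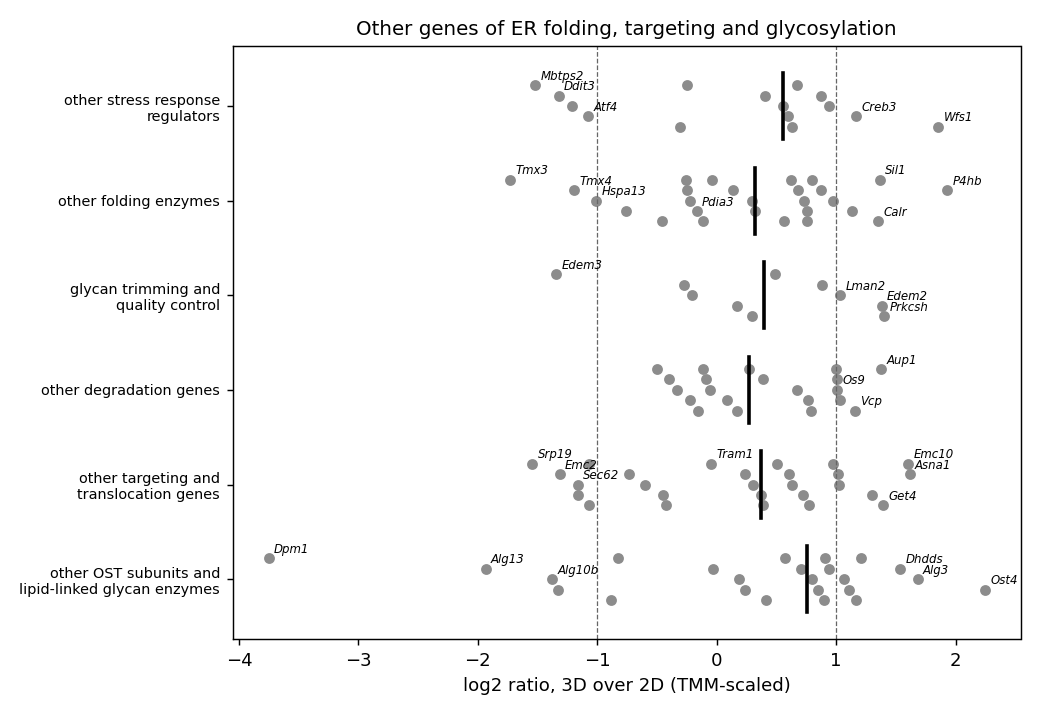
Log2 ratio of 3D over 2D under TMM scaling for the 124 measured other genes of the pathway in 6 lists; each point is a gene, black bars are list medians, dashed lines mark 2-fold and the genes picked by rule are named. The list medians lie between 0.27 and 0.75, and each list except that of degradation genes has members beyond 2-fold on both sides.

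Genes downstream of PERK lay on both sides. Atf4, the transcription factor whose translation PERK favours, stood at 303 and 144 CPM, 2.11-fold lower (2.00 to 2.22), and at -2.38 after adjustment. Ddit3, the ATF4 target known as CHOP, stood at 36.6 and 14.6 CPM, 2.50-fold lower (2.13 to 2.95), with -1.33 after adjustment, or -2.18 with the principal transcript. Of the ATF4 targets in the list that did not reach 2-fold, named after their values were seen, Chac1 had a ratio of 0.808 (adjusted -1.20), Trib3 one of 1.51, or 0.997 under total counts (adjusted -0.42), and Atf3 one of 1.83, above 1 under each scaling (adjusted 0.34). Mbtps2, the protease that cuts ATF6 within the membrane, was 2.87-fold lower (2.58 to 3.20), with -0.44. Wfs1, an ER membrane protein that restrains ATF6, was 3.61-fold higher (3.20 to 4.10), with 1.09, and Creb3, an ATF6-like factor, 2.25-fold higher (1.99 to 2.53), with 0.42. In that list 2 of 15 genes were higher and 4 lower, against 18.7% and 20.8% of all genes. The last of the lower genes was Nck1 (2.31-fold), an adaptor, named after its value was seen like others that complete a count below. Ddit3 shares 68 exon bases with Mars on the opposite strand and is annotated at a second, overlapping gene model, so its counts are uncertain. Creb3 shares 360 exon bases with Tln1, an abundant gene on the opposite strand.

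The most abundant folding genes outside the members were P4hb and Calr, and both were higher in 3D under TMM scaling. P4hb, the classical protein disulfide isomerase, stood at 1930 CPM in 2D and 7338 CPM in 3D, 3.80-fold higher (3.76 to 3.85), and Calr, the soluble lectin calreticulin, at 1588 and 4051 CPM, 2.55-fold higher (2.51 to 2.59). After adjustment they were at 0.23 and 0.01, but at 1.43 and 1.28 when GC content alone was adjusted for. Pdia3, the isomerase that works with calreticulin and calnexin, stood at 1356 and 1207 CPM, with -0.87 after adjustment, near the values of Pdia4 and Pdia6. With GC content alone Pdia3 was at 0.18. Sil1, a second exchange factor of BiP, was 2.57-fold higher, as was Sdf2, a relative of Sdf2l1 (2.2-fold). The membrane thioredoxins Tmx3 and Tmx4 were 3.31-fold and 2.29-fold lower, and Hspa13 was 2.01-fold lower. The adjusted log2 ratios of Sil1, Tmx3, Tmx4 and Hspa13, at 0.31, -0.16, -0.19 and 0.10, lay within 2-fold. Of the 27 genes of this list, 4 were higher and 3 lower before adjustment (18.7% and 20.8% of all genes). After adjustment for GC content, length and expression 0 were higher or lower (10.4% and 9.49% of all genes).

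In glycan trimming and quality control, 3 of 10 measured genes passed 2-fold on the higher side, namely Prkcsh (glucosidase II beta, 2.64-fold), Edem2 (2.60-fold) and the cargo lectin Lman2 (2.05-fold), and Edem3 was 2.54-fold lower. Prkcsh and Lman2 were at 0.02 and 0.23 after adjustment. Edem1, Edem2 and Edem3 thus had ratios of 1.08, 2.60 and 0.394, and adjusted values of -0.0047, 0.33 and -0.45 on the log2 scale. Among the other degradation genes 5 of 21 were higher and 0 lower, against 18.7% and 20.8% of all genes. Aup1, a lipid droplet protein of the ligase complex, was 2.60-fold higher, and Vcp, the ATPase that pulls substrates out, 2.23-fold higher. The lectin Os9 was 2.01-fold higher, and Ube2j2 (2.04-fold) and Nploc4 (2.00-fold), the cofactor of the ATPase, complete the count. After adjustment Aup1, Vcp and Os9 were at -0.13, 0.39 and -0.22. Vcp has a near-identical copy, Vcp-rs, with 1127 and 1894 counts, and Aup1 shares 753 exon bases with Htra2 on the opposite strand, so their counts are uncertain.

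Targeting genes lay on both sides. Get4 (2.62-fold), Asna1 (3.06-fold), both of the path for tail-anchored proteins, and Emc10 (3.03-fold), of the ER membrane complex, were the 3 highest by rule, and Srp19 (2.92-fold lower), of the signal recognition particle, Emc2 (2.49-fold) and Sec62 (2.24-fold), a partner of Sec63, were the 3 lowest. After adjustment each lay within 2-fold, at 0.29 for Get4, 0.11 for Asna1, 0.12 for Emc10, -0.67 for Srp19, -0.65 for Emc2 and -0.43 for Sec62, although Srp19 was at -1.11 with the principal transcript. Sec62 and Sec63 were both lower in 3D before adjustment. Of 27 measured genes 6 were higher and 6 lower (18.7% and 20.8% of all genes), and after adjustment 2 and 0 (10.4% and 9.49%). Tram1, which lines the channel, was near equal at 190 and 184 CPM under TMM scaling, with a ratio of 0.639 under total counts.

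Sugar chain genes had the highest list median, 0.70 above that of all genes and 0.28 after adjustment. Of the 24 genes 7 were higher and 4 lower, against 18.7% and 20.8% of all genes. Ost4, the smallest subunit of the oligosaccharyltransferase, had 74 and 268 counts and was 4.73-fold higher (3.65 to 6.21), with 1.97 after adjustment, but it shares 677 exon bases with Agbl5 on the opposite strand. Alg3 and Dhdds, enzymes of the lipid-linked glycan, were 3.21-fold and 2.90-fold higher, and at 0.67 and 1.0 after adjustment. Alg13 and Alg10b were 3.83-fold and 2.59-fold lower, with -0.88 and -0.31, and Alg6 2.51-fold lower. Dpm1, a subunit of dolichol-phosphate mannose synthase, had 88 counts in 2D and 5 in 3D, 13.5-fold lower (5.56 to 42.5), and it lies on the same strand as the overlapping gene Gm20716, so its counts are uncertain.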

How the data were processed

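The files hold raw counts of reads per gene, deposited by the authors; per the submitters' processing notes these came from Trimmomatic, HISAT2 and HTSeq with mm10. Versions, the strand setting, the annotation release and the treatment of multi-mapping reads were not stated. RNA was taken with TRIzol and made into TruSeq stranded libraries, per the labels' protocols. Reads carry no molecular identifiers, so intervals and floors describe counting error and no more.

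Of 52550 identifiers, 52403 matched GENCODE M21 (mm10), which gave symbols, positions, length and GC content. Scaling was TMM in edgeR 4.0.16. The ratio is 3D over 2D CPM with an exact conditional 95% interval. Adjusted values are residuals on natural cubic splines (4 degrees of freedom; patsy 1.0.2) of GC content, log2 length of the longest transcript and log2 mean CPM over 11666 genes, which explained 45.6% of the variance; a biological difference along these properties is removed too. Near-identical copies were sought with minimap2 2.31.

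The members and lists were chosen with earlier results of these data known. Named were all members, up to 3 other pathway genes per list and direction past 2-fold, ranked by the interval bound nearest to 1, and 8 landmark genes. Alternatives covered scaling (DESeq2 1.42.0 size factors among them), filters, a pseudocount, thinning, protein-coding genes, fold thresholds and the adjustment. The functions were tested on simulated counts.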

Additional observations from a re-analysis of the deposited data

How the results depend on the processing

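No replicate could be left out with 1 library per culture method, and no paired analysis was possible because each group holds a single sample. The counts of members at least 2-fold higher and lower, 4 and 1, were 1 and 8 under total counts (5.77% and 35.9% of all genes), 0 and 10 with the reference genes (3.56% and 42.2%), 3 and 2 when protein-coding genes alone were scaled (16.3% and 20.3%), 3 and 3 after the full adjustment, 3 and 3 with principal transcripts (7.83% and 8% of all genes), and 7 and 1 after adjustment for GC content alone (13% and 12.5%). A threshold of 1.5-fold gave 14 and 7 (31.7% and 30.4%) and one of 4-fold gave 0 and 0 (2.23% and 6.67%); these follow from the threshold. DESeq2 size factors, upper-quartile scaling, no filter, a filter at 5 CPM, a pseudocount and the interval bound each gave 4 and 1, and thinning gave 6 and 1 (18.8% and 20.9%). The distance of the members' median from that of all genes, 0.25, was 0.40 without a filter and 0.18 at a mean of at least 5 CPM, where the genes tested differ. It was 0.37 after adjustment for GC content, -0.30 after the full adjustment and -0.18 with principal transcripts, a setting chosen after the data were seen; the cause was not tested. The adjusted distance of -0.30 was between -0.29 and -0.26 with splines of 6 degrees of freedom, exon unions, a fit over protein-coding genes or a filter at 5 CPM, and -0.18 with principal transcripts.

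Of the 73 named genes, those at least 2-fold different kept their sign under every scaling and filter, but 14 of them fell short of 2-fold under total counts, 18 with the reference genes and 22 after the full adjustment with the same sign; 5 turned after the full adjustment: Rpn2 (-0.14), Ddost (-0.20), Aup1 (-0.13), Os9 (-0.22) and Hspa13 (0.10). With principal transcripts Rpn2 (-0.060), Ddost (-0.11), Os9 (-0.13), Hspa13 (0.24) and Tmx3 (0.0057) turned, and after adjustment for GC content alone Tmx3 (0.14) and Hspa13 (0.28). Of the 11 member pairs, Sec61a1 over Sec63, with a shift of 1.48 log2 units, turned to -0.20 after the full adjustment and -0.19 with principal transcripts. Smaller shifts turned under these settings too. Derl1 over Derl2 went from 0.36 to -0.81 and -0.78, and Stt3a over Stt3b from -0.08 to 1.055 and 1.06. The cause was not tested. Depth limits little here: the median interval of a member spans 0.07 log2 units to either side. It limits Derl3, with 0 counts, and Dpm1, with 5 counts in the 3D library.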
